A study of Mus musculus with 16 samples.

Results

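The hypothalamic neuropeptide genes followed here were 10 of the 55487 genes listed, namely Oxt, Avp, Hcrt, Pmch, Agrp, Cartpt, Trh, Crh, Ghrh and Gal, taken as the rows of the count table that carry these symbols. The RNA came from bulk brain tissue of 16 female mice on a C57BL/6J background, with 4 mice in each of 4 groups. All 16 mice were CETPtg, that is, they carried the human transgene for cholesteryl ester transfer protein, which mice lack. The groups were CETPtg with vehicle, CETPtg with evacetrapib, APPtg/CETPtg with vehicle and APPtg/CETPtg with evacetrapib. APPtg mice additionally carried mutant human APP under the Thy1 promoter, which drives expression in neurons. Every mouse was fed chow and then a diet with 1% cholesterol, and received daily intraperitoneal injections of the CETP inhibitor evacetrapib at 30 mg/kg or of vehicle for 11 weeks. Tissue was taken 4 h after the final injection.

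The hypothalamus lies at the base of the forebrain and holds small nuclei whose neurons make peptides that act as hormones or transmitters. Magnocellular neurons of the paraventricular and supraoptic nuclei make oxytocin (Oxt) and vasopressin (Avp) and send them to the posterior pituitary. Neurons of the lateral hypothalamus make orexin (Hcrt), which maintains wakefulness, or melanin-concentrating hormone (Pmch). Arcuate neurons make agouti-related peptide (Agrp), which stimulates feeding, or growth hormone-releasing hormone (Ghrh), and parvocellular paraventricular neurons make thyrotropin-releasing hormone (Trh) and corticotropin-releasing hormone (Crh). Cartpt (CART prepropeptide) and Gal (galanin) are made in several nuclei. Trh, Crh, Cartpt and Gal are also expressed outside the hypothalamus, Crh in cortical interneurons and Trh in the olfactory bulb.

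The genes are scattered over the genome except for Oxt and Avp, which are neighbours. In GRCm38, Oxt lies at chr2:130576173-130577054 on the plus strand and Avp at chr2:130580620-130582554 on the minus strand, tail to tail with 3565 bases between them. On the minus strand of other chromosomes or farther along chr2 lie Hcrt (chr11:100761069-100762931), Cartpt (chr13:99898489-99901091), Trh (chr6:92242061-92244650), Crh (chr3:19693401-19695396), Ghrh (chr2:157329497-157347506) and Gal (chr19:3409915-3414544). Both genes have 3 exons. Their transcripts were compared because reads of paralogs can be hard to assign. The stretches that encode the 9 residues of the hormones lie in exon 1, at chr2:130576267-130576293 for Oxt and chr2:130582446-130582472 for Avp. Of their 27 bases, 22 were the same and 5 differed, shown in capitals.
Oxt: tgctacAtccagaactgcccCCTGggc
Avp: tgctacTtccagaactgcccAAGAggc
Counted from 1 at the 5′ end, with the Oxt base first, the differences were A7T, C21A, C22A, T23G and G24A. The longest run of bases common to the Oxt and Avp transcripts was 127 bases of coding sequence across the junction of exons 1 and 2, shorter than the 150-nt reads. It is printed in full because a read that lies mostly within it carries little to tell the genes apart.
Oxt and Avp: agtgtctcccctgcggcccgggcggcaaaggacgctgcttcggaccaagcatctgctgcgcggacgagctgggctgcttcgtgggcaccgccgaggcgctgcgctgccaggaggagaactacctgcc

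Promoters of 8 of the 10 genes were found in RefSeq's sequences for GRCm38.p6, and Agrp and Crh were not matched. The windows of Oxt, Avp, Hcrt and Pmch are shown, 4 of the 7 genes that had their highest level in the same mouse, as described below. Each holds 250 bases before and 50 after the start site. Capitals mark TATAAA (the TATA box), its variant with C first (CATAAA) and the half-site of nuclear receptors (AGGTCA), on either strand.
Oxt, chr2:130575919-130576218, plus strand: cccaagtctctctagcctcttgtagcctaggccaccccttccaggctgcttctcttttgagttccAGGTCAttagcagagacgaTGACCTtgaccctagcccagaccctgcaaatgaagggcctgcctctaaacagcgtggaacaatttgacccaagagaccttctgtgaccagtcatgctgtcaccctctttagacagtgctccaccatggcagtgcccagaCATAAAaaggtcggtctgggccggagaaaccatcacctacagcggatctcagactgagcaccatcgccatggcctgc
Avp, chr2:130582539-130582838, minus strand: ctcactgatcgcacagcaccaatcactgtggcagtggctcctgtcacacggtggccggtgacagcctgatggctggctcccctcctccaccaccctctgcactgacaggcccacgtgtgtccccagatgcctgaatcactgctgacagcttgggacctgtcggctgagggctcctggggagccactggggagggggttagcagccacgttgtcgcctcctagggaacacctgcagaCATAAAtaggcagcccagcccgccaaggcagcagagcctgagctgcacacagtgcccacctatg
Hcrt, chr11:100762882-100763181, minus strand: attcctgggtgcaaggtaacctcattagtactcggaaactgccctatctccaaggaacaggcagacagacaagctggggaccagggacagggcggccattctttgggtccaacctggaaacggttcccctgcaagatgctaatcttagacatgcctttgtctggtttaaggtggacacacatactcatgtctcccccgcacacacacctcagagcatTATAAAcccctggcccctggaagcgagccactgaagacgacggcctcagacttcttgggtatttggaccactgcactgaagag
Pmch, chr10:88090822-88091121, plus strand: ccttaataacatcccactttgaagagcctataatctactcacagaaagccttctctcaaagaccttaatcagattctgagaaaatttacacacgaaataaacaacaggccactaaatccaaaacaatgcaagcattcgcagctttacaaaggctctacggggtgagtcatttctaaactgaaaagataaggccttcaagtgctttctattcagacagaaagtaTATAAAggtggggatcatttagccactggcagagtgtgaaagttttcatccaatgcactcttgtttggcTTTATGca
CATAAA stood at position -27 from the start in Oxt and at -14 in Avp, and 11.9% of 32851 promoter windows of the same length held it on either strand. Hcrt and Pmch held TATAAA, at -33 and -27, as did 13.6% of windows. AGGTCA was found at -185 and, on the other strand, at -166 in Oxt but not in the Avp window, and 16.3% of windows held it. None of the 4 windows held the homeodomain palindrome TAATTA (5.29% of windows) or the cyclic AMP response element TGACGTCA (1.79%).

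Library totals ran from 21391335 to 55453789 counts. Depth went largely with genotype, with 28626139 to 46800787 counts in CETPtg mice. APPtg/CETPtg mice had 21391335 to 27398792 counts, except vehicle replicate 4, which had the highest total. Levels are given as CPM, that is, counts scaled to TMM library sizes, on which the 3 counts that a count of 0 allows corresponded to 0.0539 to 0.139 CPM. These limits cover counting error only. Of the 10 genes, 6 had at least 10 counts in at least 4 mice and were tested (Oxt, Avp, Cartpt, Trh, Crh and Gal), and 4 did not (Hcrt, Pmch, Agrp and Ghrh). The 4 low genes therefore enter no count of calls. Libraries of the genotypes lay in separate columns of the index plate and those of the treatments in separate rows, so that plate position cannot be told apart from genotype or treatment. Within a treatment, same-numbered mice of both genotypes shared a plate row. Row E held vehicle replicate 3 of both genotypes, the mice highest in Oxt and Avp as described below, and the part of the row was not tested. Since the RNA was bulk, fewer cells of a type and less RNA per cell cannot be told apart either, and the share of hypothalamus in each sample is not known. The labels and the study's text describe bulk or total brain tissue, and its methods add that the cerebrum of non-perfused mice was divided into 4 pieces before freezing, without saying which entered the RNA.

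**Figure D1:**
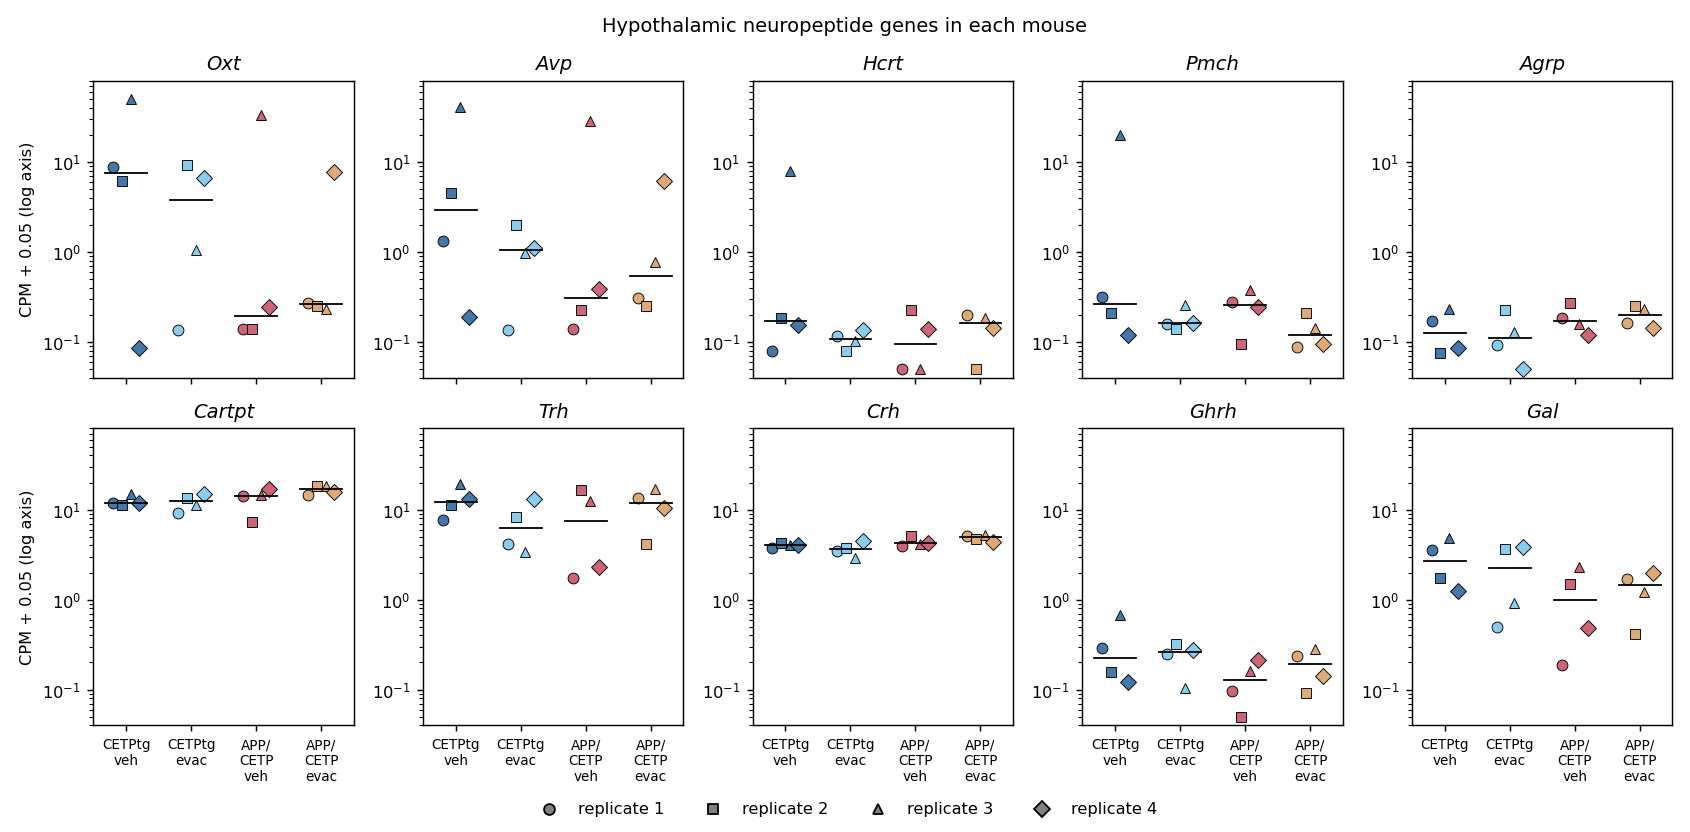
Level of each gene in each of the 16 mice, as CPM plus 0.05 on a log axis, by group (veh, vehicle; evac, evacetrapib). Symbols mark replicate numbers, which were not treated as pairs, and lines the group medians. Oxt and Avp spread widest in every group, Hcrt and Pmch are near the floor in all mice but CETPtg vehicle replicate 3, and Crh and Cartpt are nearly level.

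Oxt ranged from 1 count to 1897 counts between mice, with low and high mice in every group. In CETPtg mice with vehicle, Oxt was at 8.86, 6.08, 49.9 and 0.0352 CPM in replicates 1 to 4. With evacetrapib, CETPtg mice had 0.0882, 9.23, 1.01 and 6.56 CPM. In APPtg/CETPtg mice, the levels were 0.0907, 0.0901, 33.5 and 0.198 CPM with vehicle and 0.226, 0.203, 0.184 and 7.75 CPM with evacetrapib. Thus 3 of 4 mice in each APPtg/CETPtg group were at or below 0.226 CPM and the remaining mouse was far above them, while each CETPtg group held 1 mouse with at most 4 counts. All groups overlapped.

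Avp followed the same mice. CETPtg mice had 1.29, 4.55, 40.7 and 0.141 CPM with vehicle and 0.0882, 1.95, 0.929 and 1.08 CPM with evacetrapib. APPtg/CETPtg mice had 0.0907, 0.180, 28.9 and 0.341 CPM with vehicle and 0.264, 0.203, 0.738 and 6.13 CPM with evacetrapib. In each of the 4 groups, the same mouse was highest for Oxt and Avp. The ratio of the genes was not constant: in CETPtg vehicle replicate 1, Oxt had 295 counts and Avp 43, whereas in replicate 2 Oxt had 226 and Avp 169.

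Hcrt and Pmch were high in 1 mouse only. In CETPtg vehicle replicate 3, Hcrt had 300 counts (7.89 CPM), 43.7 times the CPM of the next mouse, and the other 15 mice had between 0 and 5 counts. Pmch had 762 counts in the same mouse (20.03 CPM), 61.2 times the next mouse, and between 1 and 11 counts in the others. Hcrt was at 0 counts in 3 mice, where up to 0.122, 0.136 and 0.109 CPM is allowed (APPtg/CETPtg evacetrapib replicate 2 and APPtg/CETPtg vehicle replicates 1 and 3). APPtg/CETPtg vehicle replicate 3, the mouse second highest in Oxt and Avp, thus had 0 counts of Hcrt and 9 of Pmch. Pmch (chr10:88091072-88092375) overlaps Parpbp on the opposite strand, and the strand setting of the counting was not given in the sources used here.

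The arcuate genes were near the floor throughout. Agrp had between 0 and 7 counts in the 16 mice, at most 0.225 CPM. Its annotated span (chr8:105566698-105637393) overlaps 7 other genes, so that these few counts are uncertain. Ghrh had 24 counts (0.631 CPM) in CETPtg vehicle replicate 3 and between 0 and 9 in the others. Kiss1, which arcuate and anteroventral neurons express, was at 0 counts in all 16 mice.

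Trh was counted in every mouse, with a wide spread. Its levels were 7.57, 11.2, 19.3 and 12.9 CPM in CETPtg mice with vehicle and 4.12, 8.21, 3.35 and 13.1 CPM with evacetrapib. In APPtg/CETPtg mice, they were 1.68, 16.4, 12.6 and 2.25 CPM with vehicle and 13.4, 4.10, 16.8 and 10.4 CPM with evacetrapib. Of the 5 mice lowest in Trh, 4 were at or below 0.203 CPM of Oxt, whereas CETPtg vehicle replicate 4, lowest of all in Oxt, had 12.9 CPM of Trh.

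Gal, a peptide that inhibits many of the neurons it reaches, ranged from 0.136 to 4.73 CPM. CETPtg mice had 3.51, 1.69, 4.73 and 1.20 CPM with vehicle and 0.441, 3.57, 0.876 and 3.83 CPM with evacetrapib. APPtg/CETPtg mice had 0.136, 1.44, 2.26 and 0.431 CPM with vehicle and 1.62, 0.365, 1.15 and 1.95 CPM with evacetrapib. The 4 highest mice were CETPtg, but the genotypes overlapped in both treatments.

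Crh and Cartpt were the even members. Crh lay between 2.84 and 5.16 CPM in the 16 mice, with 3.97 ± 0.216 CPM (SD, n = 4) in CETPtg mice with vehicle, 3.61 ± 0.672 in CETPtg mice with evacetrapib, 4.32 ± 0.507 in APPtg/CETPtg mice with vehicle and 4.81 ± 0.383 with evacetrapib. Cartpt lay between 7.17 and 18.4 CPM, with means of 12.5 ± 1.72, 12.2 ± 2.53, 13.2 ± 4.20 and 16.7 ± 2.01 CPM in the same order. CETPtg vehicle replicate 3, highest of the 16 mice in 7 of the 10 genes, was inside the range of the other mice for both, although within its own group it stood apart for Cartpt (15.04 CPM, nearest mouse 11.8).

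Set side by side per length, as the median over mice of CPM per kb of exon, Cartpt was highest (11.1), followed by Trh (7.80), Crh (3.15), Gal (1.95), Avp (1.44), Oxt (1.15), Ghrh (0.203), Pmch (0.184), Hcrt (0.117) and Agrp (0.110). The ranges over mice of neighbours in this order overlapped. In CETPtg vehicle replicate 3, the order on the same scale was led by Oxt (92.9), Avp (70.6) and Pmch (26.7).

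The spread within groups was above that of the median gene for all 6 tested members, by a wide margin for Oxt and Avp and a narrow one for Crh. The within-group coefficient of variation of CPM was 186% for Oxt, 222% for Avp, 73.6% for Gal, 57.5% for Trh, 20.4% for Cartpt and 11.4% for Crh, where the median of the 18609 genes tested was 9.60%. By edgeR's estimate of biological variation, 0 of the 18609 genes varied more than Oxt and 1 more than Avp. Gal and Trh were exceeded by 48 and 70 genes, Cartpt by 2968 and Crh by 7397.

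**Figure D2:**
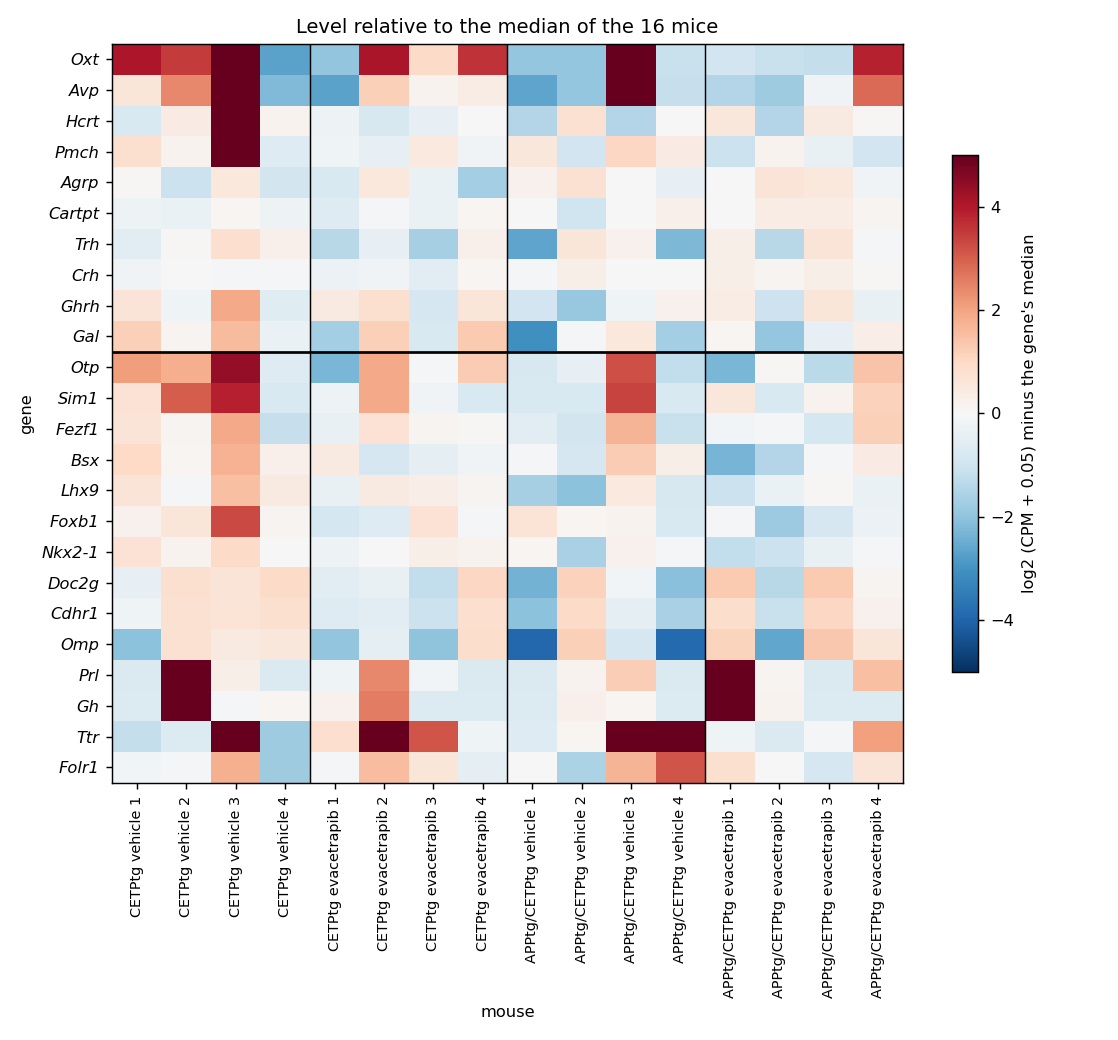
Level of the 10 genes (above the line) and of marker genes (below) in each mouse, as log2 of CPM plus 0.05 minus the gene's median over the 16 mice; colours stop at 5 in either direction. Otp and Sim1 are high in the mice high in Oxt and Avp, the olfactory bulb genes Doc2g, Cdhr1 and Omp follow another set of mice, and Prl and Gh are high in APPtg/CETPtg evacetrapib replicate 1, where Oxt and Avp are low. The hypothalamic factors drawn are all highest in CETPtg vehicle replicate 3, and the 6 factors highest in other mice are not drawn.

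Covariation between nuclei was examined over the 45 pairs of genes, on log2 CPM over the 16 mice, with two-sided permutation tests (100000 permutations) and Benjamini-Hochberg adjustment over the pairs. By Pearson's r, 4 pairs passed an adjusted p of 0.05. Oxt and Avp had r = 0.926 and Spearman's rho = 0.926, each with p = 1e-05, the smallest these permutations can give, and an adjusted p of 0.00045. Without the 2 mice farthest from the median of Oxt, r was 0.894. Within genotypes, r was 0.901 over the 8 CETPtg mice and 0.977 over the 8 APPtg/CETPtg mice, and with group means removed it was 0.942. The mice fell on either side of a gap in Oxt, a split chosen after seeing the data, and r was 0.803 among the 9 mice below it and 0.869 among the 7 above it.

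By r on log2 CPM, Gal passed with both magnocellular genes and with Trh. With Oxt, Gal had r = 0.765 (rho = 0.776), with Avp r = 0.682 (rho = 0.771) and with Trh r = 0.785 (rho = 0.588). The pair with Trh did not pass by rho (adjusted p = 0.144, permutation), and on CPM without the logarithm neither Avp nor Trh passed with Gal (r = 0.551 and 0.560, adjusted p = 0.108 for both, permutation). On either side of the gap in Oxt, Oxt and Gal had r = 0.105 over 9 mice and 0.356 over 7. Trh itself had r = 0.391 with Oxt and 0.475 with Avp, and neither pair passed. With group means removed, r was 0.738, 0.682 and 0.811 for the Gal pairs, and none of the 3 passed after adjustment (adjusted p = 0.0803, 0.0808 and 0.0808, permutation within groups).

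The pairs that share a nucleus did not behave alike. Their median r was 0.627 over 4 pairs, beside 0.248 over the other 41 pairs. Hcrt and Pmch of the lateral hypothalamus had r = 0.772 (permutation p = 0.0619) but rho = -0.431, and without CETPtg vehicle replicate 3 r was -0.707 over 15 mice, in which neither gene exceeded 11 counts. The relation therefore rests on 1 mouse. The parvocellular pair Trh and Crh had r = 0.482 (permutation p = 0.0582), and the arcuate pair Agrp and Ghrh, both near the floor, had r = -0.0715 (permutation p = 0.789).

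**Figure D3:**
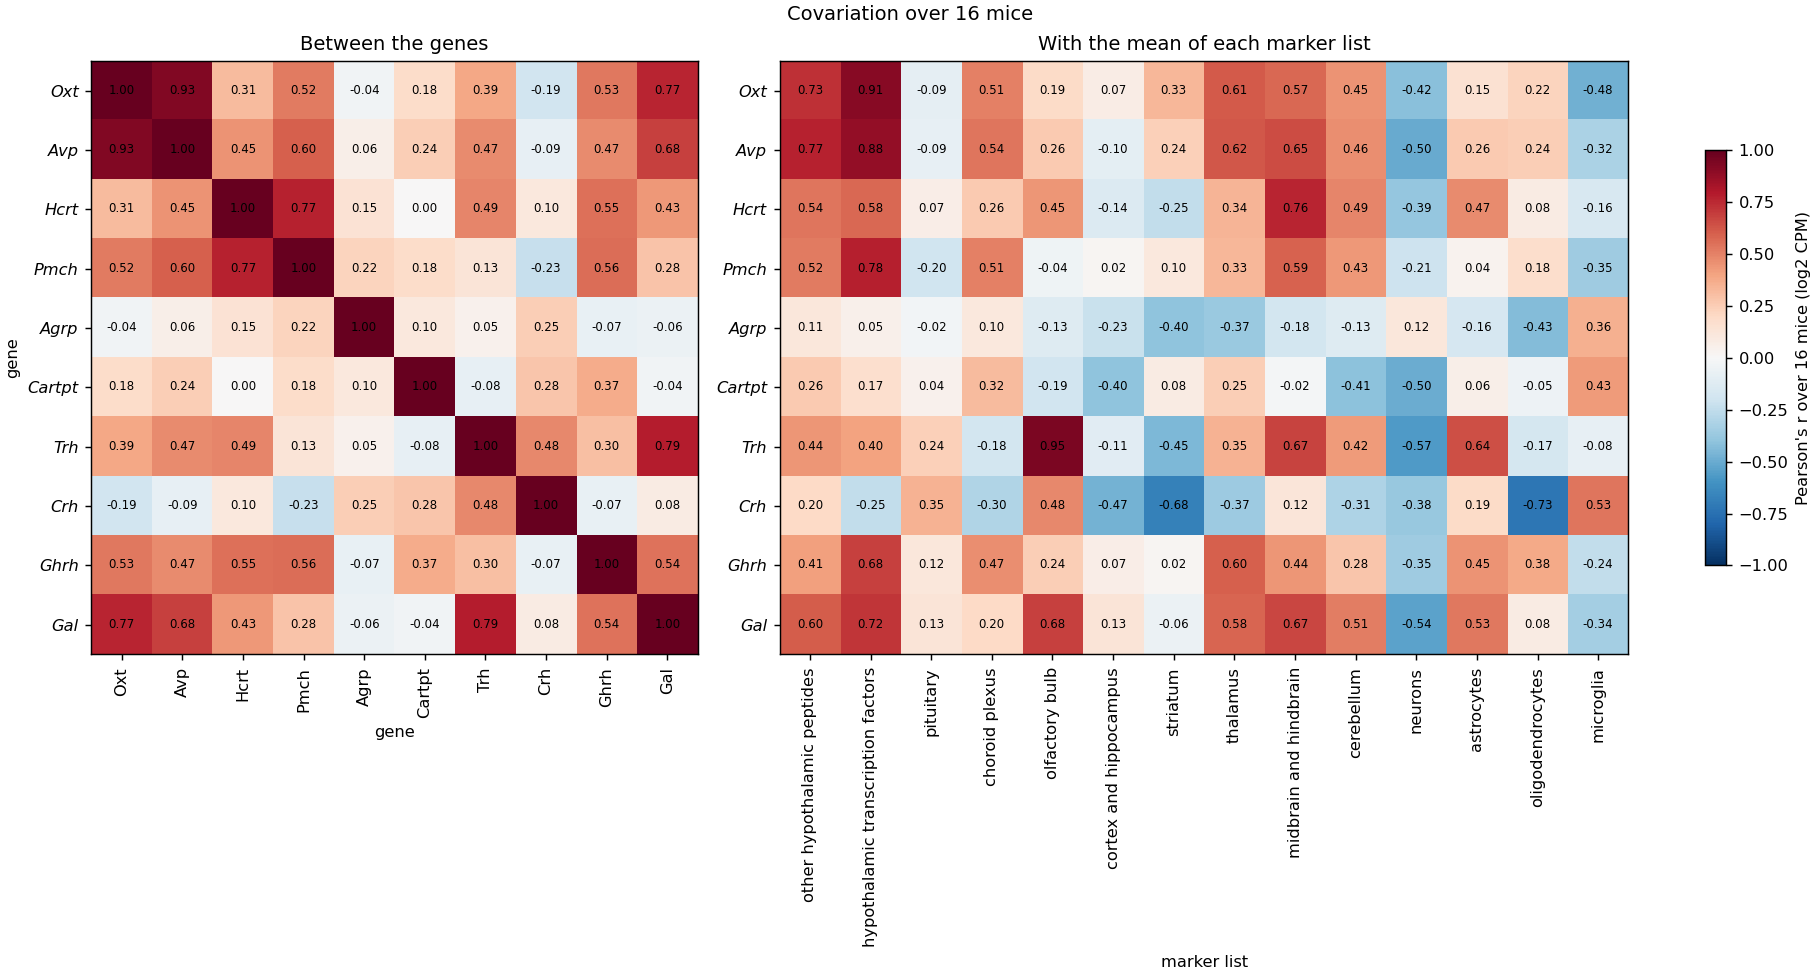
Pearson's r over the 16 mice on log2 CPM, between the 10 genes (left) and between each gene and the mean of each marker list (right). The highest values are 0.926 for Oxt with Avp, 0.907 for Oxt with the hypothalamic transcription factors and 0.945 for Trh with the olfactory bulb list.

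Each gene was then compared with 14 lists of markers of brain regions and cell types, none of which holds any of the 10 genes, in 140 relations adjusted together, and 14 passed by r, of which 8 passed also by rho. The list of 16 hypothalamic transcription factors rose and fell with Oxt (r = 0.907, permutation p = 1e-05, adjusted p = 0.0007; rho = 0.882) and with Avp (r = 0.882, adjusted p = 0.000933, permutation; rho = 0.874). Without the 2 mice farthest from the median of that list, r was 0.926 and 0.783. Gal passed with the same list (r = 0.717, adjusted p = 0.0278, permutation; rho = 0.826). Pmch and Ghrh passed by r but not by rho, and without CETPtg vehicle replicate 3 their r fell to 0.427 and 0.469. Oxt and Avp passed also with the list of other hypothalamic peptides (r = 0.729 and 0.767).

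Some single factors show the pattern and others do not. Otp, a homeodomain factor needed for magnocellular neurons to form, had 193 counts in CETPtg vehicle replicate 3 (5.07 CPM), 62 in APPtg/CETPtg vehicle replicate 3 (2.26 CPM) and a median of 0.194 CPM over all mice. Sim1, which acts in the same lineage, was highest in the same mice, at 1.24 and 0.837 CPM, with a median of 0.0363. CETPtg vehicle replicate 3 had the highest level of 10 of the 16 factors, some of them near the floor or little above the next mouse. Sox14 had 2 counts there, and Hmx3 had 14, beside 12 in the next mouse. Among the 10 factors, Foxb1 of the mammillary region stood at 1.68 CPM, 7.04 times the next mouse, and Lhx9 at 1.60 CPM, 1.84 times the next. The other 6 factors were highest in other mice. Six6 (0.679 CPM) and Nr5a1 (0.415 CPM) were highest in APPtg/CETPtg evacetrapib replicate 1, where Oxt had 6 counts. Rax (0.277 CPM) was highest in APPtg/CETPtg evacetrapib replicate 3, where Oxt had 4 counts. Nkx2-2 was highest in CETPtg vehicle replicate 1 (5.79 CPM) and Hmx2 in APPtg/CETPtg vehicle replicate 3 (0.291 CPM). Arnt2, which many brain regions express, differed little, from 372.5 to 430 CPM.

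Trh followed the olfactory bulb. With the 7 olfactory bulb genes, r was 0.945 (permutation p = 1e-05, adjusted p = 0.0007; rho = 0.918), 0.887 without the 2 mice farthest from the median of that list, 0.902 in CETPtg mice and 0.966 in APPtg/CETPtg mice. Cdhr1, a cadherin of mitral and tufted cells, was at 11.3 CPM in APPtg/CETPtg vehicle replicate 1 and 15.04 CPM in replicate 4, the mice lowest in Trh, and at 96.3 CPM in APPtg/CETPtg evacetrapib replicate 3, the second highest in Trh. Trh also passed with the midbrain and hindbrain markers (r = 0.673, rho = 0.718). With the hypothalamic factors, Trh had r = 0.399, which did not pass. Its summed olfactory markers ranged from 23.8 to 233.5 CPM between mice, and their part in the level of Trh was not tested.

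With the groups pooled, Crh went against the oligodendrocyte markers (r = -0.725, rho = -0.741, adjusted p = 0.0264, permutation). By r, Crh also went against the striatal markers (r = -0.678). In APPtg/CETPtg mice, Crh was 0.27 higher on the log2 scale, though not called in edgeR. All 6 oligodendrocyte and all 8 striatal genes tested were lower in these mice. The pooled r therefore does not separate a difference between genotypes from covariation among mice of the same genotype. Cartpt and Agrp passed with none of the 14 lists. The summed oligodendrocyte markers lay between 3340 and 5097 CPM.

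**Figure D4:**
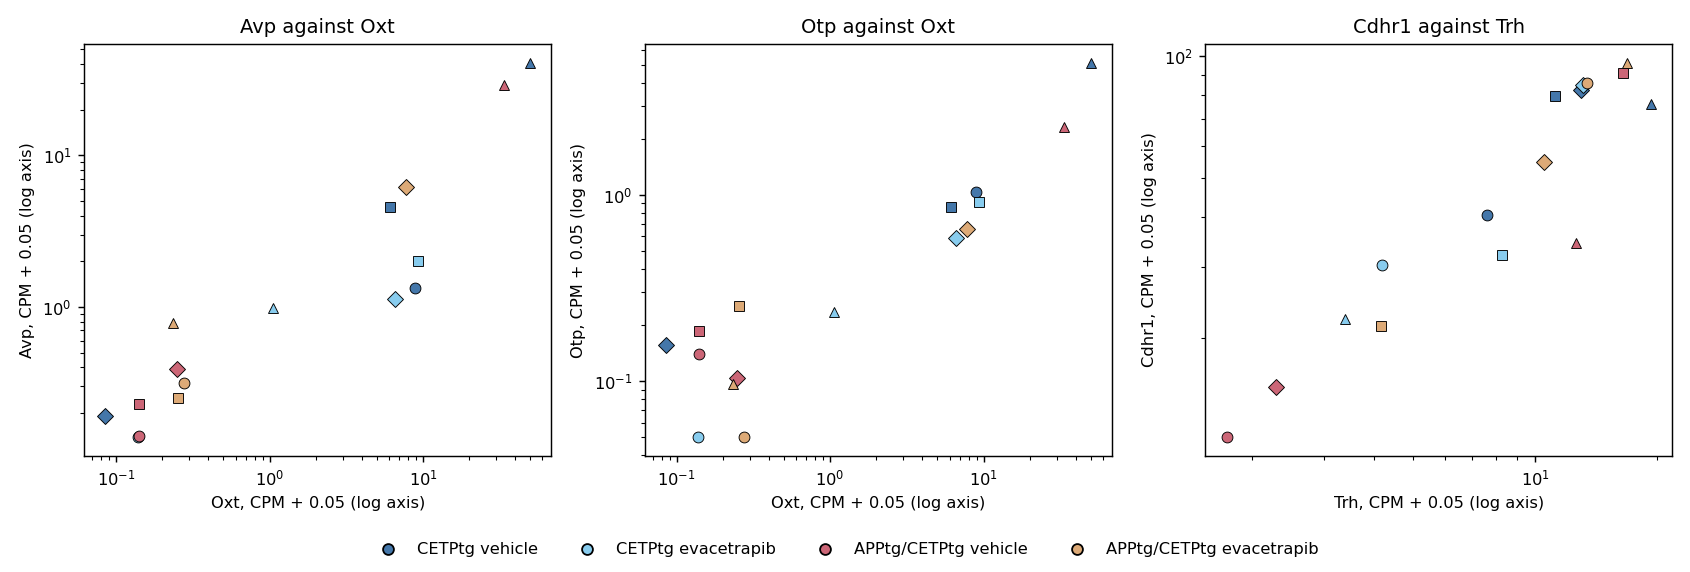
Avp against Oxt, Otp against Oxt and Cdhr1 against Trh in the 16 mice, CPM plus 0.05 on log axes, coloured by group. The 4 groups overlap along each diagonal, though most mice at the lower end for Oxt are APPtg/CETPtg. CETPtg vehicle replicate 3 and APPtg/CETPtg vehicle replicate 3 lie at the upper end for Oxt.

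The 5 genes most like each member were taken by r on log2 CPM among the 18609 genes tested. For Oxt they were Vat1 (r = 0.936), Otp (0.931), Avp (0.926), Agt (0.923), which encodes angiotensinogen, and AW551984 (0.919). For Avp they were Oxt, Agt (0.918), Vat1 (0.912), Irs2 (0.901) and Gpx3 (0.898). For Trh they were Calb2 (0.960), which encodes calretinin, S100a5 (0.946), Mdga1 (0.943), Doc2g (0.943) of the olfactory bulb list and Cbln1 (0.939) of the cerebellum list. For Gal they were Ppp1r17 (0.868), Fgfr1 (0.865), Gpr50 (0.858), Tmem255a (0.852) and Slc6a11 (0.849). Crh was closest to H3f3b (0.890) and Cartpt to Gm29773 (0.868), with no marker of the lists among their first 5. Pmch was closest to Hdc (0.857), the histidine decarboxylase of histamine neurons, but without CETPtg vehicle replicate 3 this r was 0.271.

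Markers of the pituitary and the choroid plexus differed between mice as well. The 9 pituitary genes summed to 708 CPM in APPtg/CETPtg evacetrapib replicate 1, to 10.9 CPM in CETPtg vehicle replicate 2 and to at most 0.809 CPM in the other 14 mice. The first of these mice had 6 counts of Oxt, 7 of Avp, 4 of Hcrt and 1 of Pmch. The summed choroid plexus markers were 164 CPM in CETPtg vehicle replicate 3, 119 CPM in APPtg/CETPtg vehicle replicate 3 and 123 CPM in CETPtg evacetrapib replicate 2, the 3 mice highest in Oxt, beside a median of 17.2 CPM over all mice. They were highest, at 463 CPM, in APPtg/CETPtg vehicle replicate 4, where Oxt had 11 counts. Their r with Oxt was 0.506 (rho = 0.691) and did not pass after adjustment, and their part in the level of Oxt was not tested.

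The comparison of evacetrapib with vehicle asks whether inhibiting CETP moved these genes. It did not move any of the 6 tested members past the thresholds, which were 0.05 for the Benjamini-Hochberg adjusted p of edgeR's quasi-likelihood test and a change of 5% in either direction. Over all mice, 0 of 6 were called, where 0.0107% of all genes were, and 1 of 6 had an unadjusted p under 0.05, where 7.91% of all genes did. Avp was that gene, with a log2 fold change of -2.86 (SE 1.04, adjusted p = 0.499, edgeR), and Oxt had -2.03 (SE 0.997, adjusted p = 0.643, edgeR). These fits rest on the highest mice: without CETPtg vehicle replicate 3, the log2 fold changes were -1.64 and -1.17, and without APPtg/CETPtg vehicle replicate 3 they were -1.71 and -0.81. Cartpt (0.14), Trh (-0.20), Crh (0.01) and Gal (-0.12) had log2 fold changes no larger than about their SE.

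Within genotypes the picture was the same. In CETPtg mice, 0 of 6 members were called (0% of all genes) and 1 had an unadjusted p under 0.05 (5.8% of all genes), Avp with a log2 fold change of -3.60 (SE 1.46, adjusted p = 0.837, edgeR), which was -1.07 without CETPtg vehicle replicate 3. In APPtg/CETPtg mice, 0 of 6 were called and 0 had an unadjusted p under 0.05, where 0.043% and 9.01% of all genes did. Oxt and Avp had log2 fold changes of -2.08 (SE 1.56) and -2.06 (SE 1.46) there, which turned to 3.72 and 2.84 without APPtg/CETPtg vehicle replicate 3. The interaction of treatment and genotype called 0 of 6 members (0% of all genes), with 0 under an unadjusted p of 0.05 (6.83% of all genes). Limma-voom called 0 of the 6 in each of these 4 comparisons, and so did DESeq2's Wald test.

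**Figure D5:**
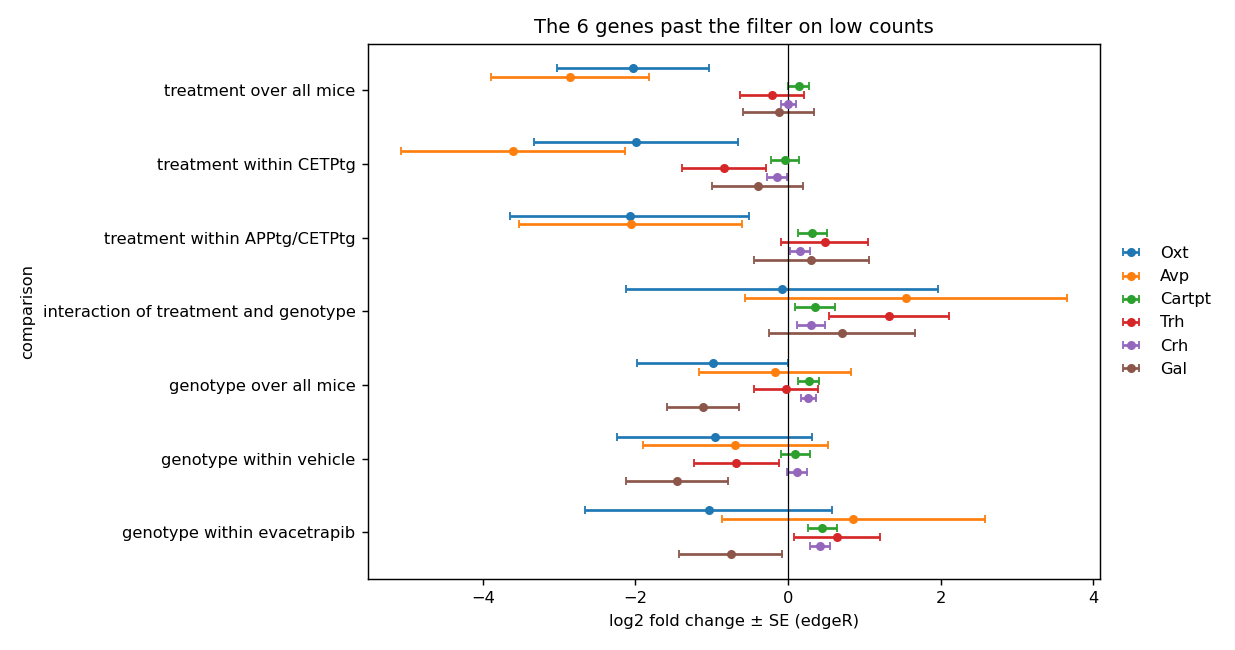
Log2 fold change with its standard error, from edgeR, of the 6 genes past the filter on low counts in each of the 7 comparisons (treatment is evacetrapib against vehicle, genotype APPtg/CETPtg against CETPtg). Bars of Oxt and Avp span several log2 units, those of Crh and Cartpt less than 1.

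The comparison of genotypes asks whether mutant APP moved these genes on a CETPtg background. Over all mice, 0 of 6 members were called in edgeR's quasi-likelihood test, where 17.7% of all genes were, and 2 of 6 had an unadjusted p under 0.05, where 30.5% did. Crh was 0.27 higher in APPtg/CETPtg mice on the log2 scale (SE 0.0953, adjusted p = 0.0584, edgeR) and Gal 1.11 lower (log2 fold change -1.11, SE 0.473, adjusted p = 0.114, edgeR). Cartpt had 0.27 (SE 0.136), Trh -0.02, Avp -0.17 and Oxt -0.99 (SE 0.984). Crh was called by DESeq2's Wald test (adjusted p = 0.0391) and, in edgeR, without CETPtg evacetrapib replicate 4 (adjusted p = 0.0429) or APPtg/CETPtg vehicle replicate 1 (adjusted p = 0.0475), so that its call depends on the tool and the mice. Gal was called without the filter on low counts (log2 fold change -1.11, adjusted p = 0.0388, edgeR), though not when CETPtg vehicle replicate 3 was left out as well (-0.91, adjusted p = 0.103), and with the filter it was called without CETPtg evacetrapib replicate 1 (adjusted p = 0.0472, edgeR) and Cartpt without APPtg/CETPtg vehicle replicate 2 (log2 fold change 0.37, adjusted p = 0.0129, edgeR). Limma-voom called none of the 6. The oligodendrocyte markers, which Crh went against across mice, were lower in APPtg/CETPtg mice for 6 of 6 genes, 3 of them called, and their summed level ranged from 4228 to 5097 CPM and 4233 to 4944 CPM in the CETPtg groups (evacetrapib, vehicle) and from 3340 to 4288 CPM and 3454 to 4568 CPM in the APPtg/CETPtg groups. Of the 8 hypothalamic factors tested, with which Gal covaried, 7 were lower in APPtg/CETPtg mice, 2 of them called. The part of either list in these values was not tested.

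Among vehicle-treated mice, 0 of 6 were called, where 10.4% of all genes were, and 1 had an unadjusted p under 0.05 (25.2% of all genes), Gal with a log2 fold change of -1.46 (SE 0.668, adjusted p = 0.178, edgeR). Without the filter on low counts Gal was called (-1.45, adjusted p = 0.0433, edgeR), but not with CETPtg vehicle replicate 3 left out too (-1.07, adjusted p = 0.206). Oxt had -0.96 (SE 1.28) and Avp -0.69 (SE 1.22). Without APPtg/CETPtg vehicle replicate 3, the one high mouse of its group, these became -6.75 and -5.59 and both were called (adjusted p = 0.0343 and 0.0353, edgeR), whereas without CETPtg vehicle replicate 3 they turned to 0.74 and 1.83. Among evacetrapib-treated mice, 0 of 6 were called (2.99% of all genes) and 2 had an unadjusted p under 0.05 (19.3% of all genes), Crh with a log2 fold change of 0.42 (SE 0.129, adjusted p = 0.0832, edgeR) and Cartpt with 0.45 (SE 0.188, adjusted p = 0.192, edgeR). Crh was called here too by DESeq2's Wald test (adjusted p = 0.0430) and without CETPtg evacetrapib replicate 4 (log2 fold change 0.53, adjusted p = 0.0371, edgeR). The share of members under an unadjusted p of 0.05 was near or under that of all genes in the genotype comparisons over all mice and among vehicle-treated mice.

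The untested members were called only where the filter on low counts was dropped and CETPtg vehicle replicate 3 was kept. Without the filter, edgeR called Pmch for treatment over all mice (log2 fold change -4.65, adjusted p = 0.0135) and Pmch and Hcrt in CETPtg mice (-5.26 and -5.05, adjusted p = 0.00315 and 0.00573). For genotype, Pmch and Hcrt were called over all mice (-4.11 and -3.57, adjusted p = 0.00124 and 0.00726) and among vehicle-treated mice (-4.65 and -4.82, adjusted p = 0.000239 and 0.000488). With that mouse left out as well, the treatment values became -0.75, -0.36 and -0.58, those for genotype -0.13 and 0.15 over all mice and 0.24 and -0.38 with vehicle, and 0 of the 10 genes were called in any of the 7 comparisons.

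The receptors of these peptides summed to between 71.7 and 88.8 CPM in each mouse, beside 17.8 to 162 CPM for the 10 members. Genes of peptide processing and secretory granules summed to between 4543 and 5281 CPM. Of 16 receptors, 13 were tested, and Avpr1b, Ghrhr and Galr2 had at most 8 counts in any mouse. The oxytocin receptor Oxtr lay between 7.499 and 12.3 CPM and Mchr1, the receptor of melanin-concentrating hormone, between 21.9 and 33.4 CPM. Of the genes of their ligands, Oxt was near the floor in some of these mice and Pmch in all but CETPtg vehicle replicate 3. None of the 13 receptors, 13 genes of peptide processing and secretory granules, 11 other peptides or 8 hypothalamic factors tested was called in any of the 4 comparisons of treatment. Over all mice, those with an unadjusted p under 0.05 were the receptors Mc4r (log2 fold change -0.47, adjusted p = 0.462, edgeR) and Galr1 (-0.64, adjusted p = 0.618, edgeR) and the factors Bsx (-1.25, adjusted p = 0.462, edgeR), Otp (-2.02, adjusted p = 0.548, edgeR) and Nkx2-1 (-0.45, adjusted p = 0.621, edgeR), beside 1 other peptide. Penk, the enkephalin precursor, was that peptide (-0.09, adjusted p = 0.618, edgeR). These were 2 of 13 receptors, 3 of 8 factors and 1 of 11 other peptides, where 7.91% of all genes had such a p. The median log2 fold change of the 8 factors was -0.46, beside -0.00148 over all genes. Otp and Bsx were highest in CETPtg vehicle replicate 3 and next in APPtg/CETPtg vehicle replicate 3. The treatment fits of Oxt and Avp rest on these mice too, and the factors' fold changes without them are not given.

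Between genotypes over all mice, 10 of these 45 genes were called, where 17.7% of all genes were. Among the receptors, Mchr1 rose in APPtg/CETPtg mice by 0.21 on the log2 scale (adjusted p = 0.0172, edgeR). Of the processing and granule genes, Crhbp, which binds corticotropin-releasing hormone, rose by 0.34 (adjusted p = 0.00816, edgeR), Chga, the granule protein chromogranin A, by 0.20 (adjusted p = 0.0295), and Lnpep, the aminopeptidase that degrades oxytocin and vasopressin, fell by 0.44 (log2 fold change -0.44, adjusted p = 1.02e-05). Of the other peptides, Vip rose by 0.34, Tac2 by 0.36, Pdyn by 0.26 and Sst by 0.19, and 0 fell. Of the hypothalamic factors, Nkx2-1 (-0.71, adjusted p = 0.0264, edgeR) and Lhx9 (-1.08, adjusted p = 0.0304, edgeR) fell, and neither was called without CETPtg vehicle replicate 3 (-0.61 and -0.84). Chga, Tac2 and Sst were also lost without at least 1 mouse, and Mchr1 without CETPtg vehicle replicate 3 when the filter on low counts was dropped as well. Of all these calls, those of Crhbp, Lnpep, Vip and Pdyn held under every alternative run. Pomc, the precursor of melanocyte-stimulating hormone and of pituitary corticotropin, was called among evacetrapib-treated mice (log2 fold change 4.98, adjusted p = 0.0310, edgeR) and had 0.48 (adjusted p = 0.699) without APPtg/CETPtg evacetrapib replicate 1, in which it reached 148 CPM beside the high pituitary markers.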

How the data were processed

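Directional libraries of poly(A)-enriched RNA were read as 150-nt pairs by the authors, whose processing notes name Trimmomatic 0.39, STAR 2.7.8a, Picard 2.0.1, StringTie 1.3.5, HTSeq and DESeq2, and the mm10 build. The deposited table holds the raw count of each gene in each mouse, and the annotation and strand setting of the counting were not given in the sources used here. All 16 columns were matched to mice by name. Counts were scaled with TMM, and the 18609 genes that reached 10 counts in 4 or more mice entered the quasi-likelihood test of edgeR 4.0.16 (R 4.3.3), adjusted over all of these genes by Benjamini-Hochberg. Treatment and genotype were compared in a model with both terms, and within-group effects and their interaction in a model with 1 mean per group. SE is the absolute log2 fold change over the square root of F. Correlations used log2 CPM with a prior count of 2. DESeq2 1.42.0, limma 3.58.1 (voom), other filters and scalings, and each mouse left out were alternatives. The tests were tried on simulated data. The simulated counts had the same spread for every gene, far below edgeR's estimate for Oxt, Avp, Gal and Trh. That trial therefore does not show how the fits behave on genes that vary this much. Coordinates are from GENCODE M21 (GRCm38), which holds 55227 of the 55487 identifiers. The edgeR p-values set differences against the spread between these mice. Replicate numbers carry no stated pairing, though same-numbered mice of a treatment shared a plate row. Mice of 1 group differed by more than counting noise (chi-square over degrees of freedom 4.75 to 21.1 in 24 pairs). Named genes were all 10 members, called genes of the companion lists, up to 4 of each list by smallest p for treatment over all mice, the 5 genes most like a member and, beside a list that moves with a member, its main genes. Other genes were named after their values were seen. The members and lists were chosen with earlier results of these data known.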

Additional observations from a re-analysis of the deposited data

Results flagged for a closer look

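A test for a mouse that stands apart from the other 3 of its group (Dixon's ratio at the 95% level) was run on the CPM of each of the 10 genes in each of the 4 groups, 40 in all. It marked 8. The rate of about 1 in 20 by chance holds for independent, normally distributed values. The CPM of these genes were skewed and covaried, so no excess over chance is read from the 8. In APPtg/CETPtg mice with vehicle, replicate 3 stood apart for Oxt (33.5 CPM, nearest mouse 0.198) and Avp (28.9 CPM, nearest 0.341). In APPtg/CETPtg mice with evacetrapib, replicate 4 did so for Oxt (7.75 CPM, nearest 0.226) and Avp (6.13 CPM, nearest 0.738). In CETPtg mice with vehicle, replicate 3 stood apart for Avp (40.7 CPM, nearest 4.55), Hcrt (7.89 CPM, nearest 0.134), Pmch (20.03 CPM, nearest 0.270) and Cartpt (15.04 CPM, nearest 11.8). All 8 were the highest mouse of their group, and 3 mice account for them. No group of CETPtg mice with evacetrapib was marked.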

How the results depend on the processing

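No member was called in 158 of the 170 counts over comparisons and settings. Without the filter on low counts, the members called were 1, 2, 3 and 3 for treatment over all mice and in CETPtg mice and for genotype over all mice and with vehicle, and the genes called for treatment over all mice, in CETPtg mice, in APPtg/CETPtg mice and in the interaction were 35, 9, 88 and 29. With CETPtg vehicle replicate 3 left out as well (chosen after seeing the data), the genes called were 50, 7, 122 and 30, and 964 for genotype with vehicle, and log2 fold changes turned to 0.13 for Gal and 0.070 for Cartpt (treatment over all mice and in CETPtg mice), -0.98 for Avp (interaction), 1.39 for Avp and 0.14 for Trh (genotype) and 0.73 for Oxt and 1.82 for Avp (genotype with vehicle). DESeq2's Wald test called 59, 73 and 2 genes for treatment over all mice, in APPtg/CETPtg mice and in the interaction and 1135 for genotype with evacetrapib, with 1 member in each of genotype over all mice and with evacetrapib, and gave 0.092 for Avp and 0.0013 for Trh (genotype). Without a genotype term 1 gene was called for treatment. Limma-voom gave -0.0047 for Crh (treatment), 0.0054 for Oxt and 0.012 for Avp (treatment in APPtg/CETPtg mice) and 1.70 for Oxt (interaction). Same-numbered mice mostly did not deviate together (r over 0.1 in 1 of 24 pairs), so the numbers were not used to pair them in the main fits. That pair was CETPtg vehicle replicate 3 with APPtg/CETPtg vehicle replicate 3 (r = 0.173), which shared a plate row. Among differently numbered mice, r was over 0.1 in 16 of 72 pairs. With a replicate block, chosen after seeing the data, 5 genes were called for treatment in APPtg/CETPtg mice, Oxt had 0.54 in the interaction, and no member's call changed. Of the correlations, Agrp with Ghrh turned to 0.139 on CPM without the logarithm and 0.140 with group means removed, where 1 of 45 pairs and 9 of 140 list relations passed.

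With each mouse left out in turn, the genes called ranged from 0 to 8 for treatment over all mice, 0 to 14 in APPtg/CETPtg mice, 0 to 1 in the interaction, 909 to 1998 for genotype with vehicle and 91 to 858 with evacetrapib. Members called ranged from 0 to 1, 0 to 2 and 0 to 1 for genotype over all mice, with vehicle and with evacetrapib. Log2 fold changes crossed 0 for Crh (-0.032 to 0.064) and Gal (-0.32 to 0.14) with treatment over all mice, Cartpt (-0.15 to 0.085) in CETPtg mice, Oxt (-5.32 to 3.72), Avp (-4.22 to 2.84) and Gal (-0.058 to 1.03) in APPtg/CETPtg mice, Oxt (-3.33 to 5.71) and Avp (-0.98 to 6.43) in the interaction, Avp (-1.85 to 1.39) and Trh (-0.20 to 0.20) with genotype, Oxt (-6.75 to 0.74), Avp (-5.59 to 1.83) and Cartpt (-0.064 to 0.28) with vehicle and Avp (-1.32 to 1.38) with evacetrapib. Pairs passing ranged from 2 to 6 of 45, list relations from 3 to 15 of 140, Hcrt with Pmch from r = -0.707 to 0.818 and Agrp with Ghrh from -0.280 to 0.137. The causes were not tested. Oxt with Avp, both with the hypothalamic factors, and Trh with the olfactory bulb list passed under every setting run. With 4 mice a group, the SE of the log2 fold change of Oxt between treatments was 0.997 over all mice, beside 0.0954 for Crh.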
